A study of Mus musculus with 28 samples.

Results

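The 31 genes described here encode the enzymes of cholesterol and fatty acid synthesis, the proteins that sense sterols, and the genes of cholesterol efflux and lipoprotein uptake. They are listed by name for their place in these pathways, with no threshold on measured values, and make up 31 of the 24421 genes in the deposited count tables. The list was nevertheless chosen with earlier results of these data known, which limits what its shares beside all genes can show. All 31 passed the filter on low counts that left 13159 genes for testing, 1 of them (Lpl) through the cDC2_WT libraries alone. They fall into 7 steps of the mevalonate pathway, 9 steps from the synthesis of squalene to cholesterol, 4 genes of sterol sensing, 6 genes of fatty acid synthesis and 5 genes of the liver X receptors (LXR), efflux and uptake.

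Bulk RNA-seq was done on dendritic cells sorted from the spleens of untreated C57Bl/6 mice aged 6 to 12 weeks, in 28 libraries. The pDC_TG group holds 4 libraries of plasmacytoid dendritic cells (pDC). Their donors were Irf8fl/fl Itgax-cre animals, where regulatory sequence of Itgax (the CD11c gene) drives Cre recombinase against the loxP-flanked Irf8 gene. Conventional dendritic cells of type 1 (cDC1_WT, sorted on CD24) and of type 2 (cDC2_WT, sorted on CD172a) came with 8 libraries each from Irf8fl/fl mice without Cre, as did the 8 libraries of control pDC (pDC_WT). The loxP-flanked Irf8 alleles were therefore carried by every group, and Cre expression and loss of Irf8 cannot be told apart in the pDC comparison. Whether a library held cells of 1 mouse or of several was not stated in the labels, so the p-values measure the spread between these libraries.

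Libraries held 17299285 to 30787679 gene counts. Irf8 was present at 1166 to 1787 CPM (counts scaled to library size) in pDC_TG, against 5378 to 6536 CPM in pDC_WT (log2 fold change -2.07, SE 0.13, edgeR adjusted p = 4.43e-13); the gene total includes exons outside any deleted part. The summed level of 6 pDC markers was 4530 to 5905 CPM in pDC_TG, 82.4 to 108 CPM in cDC1_WT, 82.3 to 97.3 CPM in cDC2_WT and 6111 to 7981 CPM in pDC_WT. By mean, Siglech, Bst2, Ccr9 and Klk1 were lower in pDC_TG than in pDC_WT. Cox6a2 was higher (1003 and 376 CPM), and Tcf4 stood at 731 and 718 CPM. The 6 cDC1 markers summed to 2549 to 3187 CPM in cDC1_WT and to at most 213 CPM in any other library. They include Cd24a (456 CPM in cDC1_WT), the gene of the CD24 sort antigen, which is no independent check of the sort. The 6 cDC2 markers reached 1889 to 2176 CPM in cDC2_WT but also 1148 to 1352 CPM in pDC_TG and 1337 to 1906 CPM in pDC_WT. Their sum thus did not separate cDC2 from pDC, but single members did. Clec4a4 averaged 218 CPM in cDC2_WT, 0.0269 CPM in pDC_TG and 0.0837 CPM in pDC_WT, and Esam 102, 3.41 and 5.74 CPM. Sirpa, the gene of the CD172a sort antigen, averaged 1233, 300 and 425 CPM. Cd4 and Clec10a were higher by mean in both pDC groups than in cDC2_WT, and Irf4 in pDC_TG. One pDC_TG library, replicate 4, carried 9 neutrophil markers at a summed 196 CPM; pDC_TG replicates 1 to 3 had 0.230 to 4.59 CPM and pDC_WT had 0.195 to 2.62 CPM. In cDC1_WT, replicate 4 had 22.0 CPM of the same markers, and the other libraries at most 1.64 CPM.

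Cholesterol is built from acetyl-CoA through mevalonate, the isoprenoids and squalene, and then through lanosterol and a series of sterol intermediates. When membranes run short of sterol, SCAP escorts the SREBP transcription factors out of the endoplasmic reticulum to be cleaved, and the released factors switch on these enzymes, whereas INSIG proteins hold SCAP back when sterol is plentiful. LXR does the reverse, turning on the cholesterol exporters ABCA1 and ABCG1 when oxidised sterols accumulate. In dendritic cells these pathways supply membrane for the endoplasmic reticulum and for secretion, and pDC have a large secretory endoplasmic reticulum.

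SREBP is known to act at promoters together with the factor NF-Y, which binds CCAAT boxes, and 4 promoters that differ in these letters are shown. Each is the 250 bases before the gene's start in RefSeq on GRCm38.p6, written 5′ to 3′ on the strand of the gene. Capitals mark a match to the sterol response element letters TCACNCCAC and every CCAAT box or its reverse complement ATTGG. Hmgcs1 (chr13:119690101-119690350, plus strand) makes the precursor of mevalonate, Mvk (chr5:114444019-114444268, plus strand) phosphorylates mevalonate, Mvd (chr8:122443423-122443672, minus strand) decarboxylates mevalonate diphosphate, and Fasn (chr11:120824548-120824797, minus strand) is fatty acid synthase.
Hmgcs1: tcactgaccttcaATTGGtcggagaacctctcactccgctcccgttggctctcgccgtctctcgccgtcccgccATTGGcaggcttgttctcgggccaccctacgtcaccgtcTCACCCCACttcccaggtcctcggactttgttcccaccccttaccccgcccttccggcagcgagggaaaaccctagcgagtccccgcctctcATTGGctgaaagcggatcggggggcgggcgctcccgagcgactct
Mvk: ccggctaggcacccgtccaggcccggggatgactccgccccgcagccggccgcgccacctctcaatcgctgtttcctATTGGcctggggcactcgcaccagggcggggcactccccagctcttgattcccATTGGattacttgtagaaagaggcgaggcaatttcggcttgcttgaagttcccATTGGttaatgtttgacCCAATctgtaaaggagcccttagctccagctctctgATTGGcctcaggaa
Mvd: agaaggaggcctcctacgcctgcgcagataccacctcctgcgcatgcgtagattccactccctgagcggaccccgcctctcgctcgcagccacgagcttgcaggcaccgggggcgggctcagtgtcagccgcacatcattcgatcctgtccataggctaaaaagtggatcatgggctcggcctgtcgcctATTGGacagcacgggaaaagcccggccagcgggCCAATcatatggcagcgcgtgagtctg
Fasn: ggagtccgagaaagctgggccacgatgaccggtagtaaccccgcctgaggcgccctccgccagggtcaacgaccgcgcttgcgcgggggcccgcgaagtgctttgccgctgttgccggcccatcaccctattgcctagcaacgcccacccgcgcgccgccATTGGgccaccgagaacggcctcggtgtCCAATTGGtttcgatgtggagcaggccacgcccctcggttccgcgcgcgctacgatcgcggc
Mvk carries 5 CCAAT boxes in this window, Hmgcs1 and Fasn 3 each and Mvd 2. Windows were found for 24 of the 31 genes, 31 windows in all, and the letters were searched on both strands. Sqle, Fdps, Fdft1, Scd1, Scd2, Abcg1 and Lpl had no window and were not searched. CCAAT occurred in 54.8% of these windows (16 genes), against 33.8% of all 32851 promoter windows of the same length. The sterol response element letters TCACNCCAC occurred in the Hmgcs1 window alone, at -137 from the start, which is 3.23% of the members' windows against 1.05% of all windows. Only these letters were searched, so an element written otherwise or outside the window would be missed. GGGCGG, the GC box, was present in 64.5% of the members' windows (18 genes) and in 32.7% of all windows. CACGTG, an E-box that SREBP1 can also bind, was present in 16.1% against 6.02%, and the LXR element letters (AGGTCA, 4 bases of any kind, AGGTCA) were in none of the members' windows and in 0.0152% of all. A match to these letters describes the sequence only.

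Irf8-deleted pDC had lower levels of 5 sterol synthesis genes than control pDC, and none of the 31 genes was higher by the test. In pDC_TG against pDC_WT, 5 of the 31 genes were called lower and 0 higher at an adjusted p below 0.05 (edgeR quasi-likelihood test, two-sided), and all 5, namely Mvd, Fdps, Fdft1, Cyp51 and Msmo1, are sterol steps. Over all genes tested, 14.8% were called, 7.04% lower and 7.72% higher, so the share of the 31 genes called (16.1%) was near the background. Among the sterol steps, 2 of 7 mevalonate genes and 3 of 9 squalene synthesis to cholesterol genes were lower, which is 28.6% and 33.3%. The median log2 fold change of the 31 genes was -0.36 against 0 over all genes, with 24 genes negative and 7 positive. Without adjustment, 12 members were lower and 0 higher at p below 0.05, and DESeq2 called 6 lower and 0 higher. The share of all genes is not given for these 2 counts, so they are no support beyond the calls above. Leaving out a pDC_TG library moved the count of 5 to 2 without replicate 1, 1 without replicate 2, 3 without replicate 3 and 3 without replicate 4. Markers of other cells stood at other levels too in this comparison. The 5 plasma cell markers summed to 1540 to 1744 CPM in pDC_TG, against 808 to 1125 CPM in pDC_WT, and the 4 markers of conventional dendritic cells to 3159 to 3366 CPM in pDC_TG, against 1842 to 2423 CPM in pDC_WT, both without overlap. Of the plasma cell markers, Sdc1 averaged 1108 CPM in pDC_TG and 51.2 CPM in pDC_WT, Prdm1 63.9 and 6.18 CPM, Jchain 47.2 and 23.1 CPM, Tnfrsf17 0.196 and 0.0247 CPM, and Xbp1 456 and 910 CPM. Of the conventional markers, H2-Eb1 averaged 2369 CPM in pDC_TG and 1789 CPM in pDC_WT, Itgax 407 and 157 CPM, and Flt3 460 and 276 CPM. Zbtb46 went the other way by mean, at 4.32 and 5.91 CPM, against 215 CPM in cDC1_WT and 176 CPM in cDC2_WT. The part of such transcripts in the levels of the 5 genes was not tested.

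Both conventional dendritic cell types had far less transcript of most sterol synthesis genes than control pDC. In cDC1_WT against pDC_WT, 20 of the 31 genes were lower and 5 higher (80.6% called; background 60.9%, with 30.3% lower and 30.6% higher), and in cDC2_WT against pDC_WT 22 were lower and 3 higher (80.6% called; background 57.1%, with 28.3% lower and 28.8% higher). The median log2 fold change of the members was -0.74 in cDC1_WT and -1.20 in cDC2_WT, where all genes had medians of -0.03 and -0.01. With total counts as the only scaling, the all-gene medians became -0.28 and -0.16, and the share of calls that were higher in cDC1_WT was 36.6%, where it was 50.3% as reported; 23 members were then lower and 4 higher in cDC1_WT. The 2 conventional types also differed from each other: 17 of the 31 genes were higher and 3 lower in cDC1_WT against cDC2_WT (64.5% called; background 46.2%, with 22.8% higher and 23.4% lower), with a median of 0.44 against -0.01 over all genes. These comparisons share libraries, the 8 pDC_WT libraries in 3 of them, so their values are given side by side. Libraries of the 2 groups did not overlap at all for 13 of the 31 members in cDC1_WT against pDC_WT (30.3% of all genes) and 21 in cDC2_WT against pDC_WT (29.4%). In cDC1_WT against cDC2_WT the count was 7 (21.2% of all genes), which is near the background. Lpl is among the 3 called higher in cDC2_WT against pDC_WT and the 3 called lower in cDC1_WT against cDC2_WT. It passed the filter through cDC2_WT alone, so these calls are not independent of that filter. In bulk samples, fewer cells of a type with the transcript and less transcript per cell cannot be told apart.

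**Figure D1:**
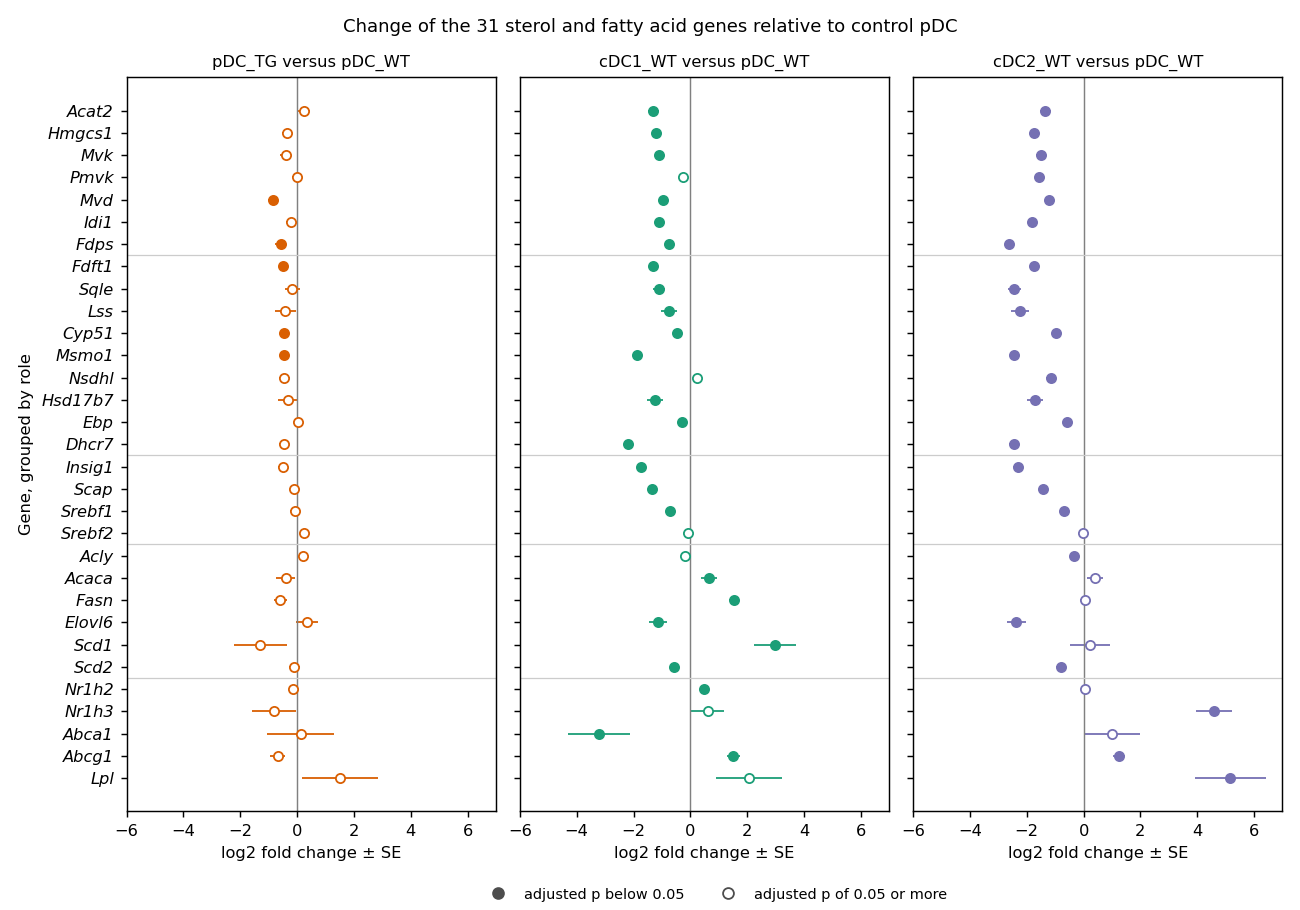
Log2 fold change with its standard error (horizontal axis) for each of the 31 genes, grouped by role from mevalonate steps (top) to LXR, efflux and uptake (bottom), for pDC_TG, cDC1_WT and cDC2_WT, each against the same 8 pDC_WT libraries. Filled circles passed an adjusted p of 0.05; the sterol steps lie left of 0 in both conventional types, apart from Nsdhl in cDC1_WT, and the highest values in cDC2_WT are those of Nr1h3 and of Lpl, which passed the filter on low counts through that group alone.

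The 7 mevalonate genes were lower in all 3 comparisons with pDC_WT wherever they were called. Mvd, mevalonate diphosphate decarboxylase, had the lowest fold change of the sterol steps in pDC_TG and the smallest adjusted p of the 31 genes there. Its levels were 21.1, 30.9, 24.9 and 34.8 CPM in the pDC_TG libraries, against a lowest of 43.6, a median of 47.8 and a highest of 65.3 CPM in pDC_WT. Every pDC_TG library thus lay below every pDC_WT library, as it did for Cyp51, Msmo1 and Insig1 too (4 of 31 genes). Over all genes, 9.71% had no overlap in either direction, so that count was near the background. The log2 fold change of Mvd was -0.85 (SE 0.18, edgeR adjusted p = 0.0013), and it was called under each of the 20 other settings tried, with adjusted p between 7.48e-05 and 0.0117. In cDC1_WT and cDC2_WT, Mvd averaged 25.8 ± 6.84 and 21.9 ± 4.46 CPM (SD, n = 8 each), log2 fold changes of -0.97 and -1.20 against pDC_WT.

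Fdps makes farnesyl diphosphate, the branch point from which sterols, ubiquinone and prenyl groups are drawn. It stood at 163, 168, 203 and 209 CPM in pDC_TG, against 174, 283 and 342 CPM (lowest, median and highest) in pDC_WT. The groups overlapped by the lowest pDC_WT library, and the difference was called (log2 fold change -0.58, SE 0.19, edgeR adjusted p = 0.033). That call was lost under 6 of the 20 other settings, among them leaving out pDC_TG replicate 1, 2 or 3 and pDC_WT replicate 1 or 2, with adjusted p up to 0.144. Fdps had 105, 178 and 210 CPM in cDC1_WT, which overlapped pDC_WT, and 29.8, 46.3 and 63.3 CPM in cDC2_WT, below every library of the other groups. It was lower than pDC_WT by a log2 fold change of -0.74 (SE 0.15) in cDC1_WT and -2.61 (SE 0.16) in cDC2_WT, and 1.87 (SE 0.15) higher in cDC1_WT than in cDC2_WT, with no overlap between the last pair. About 23.5% of the 75-base words of Fdps transcripts, the read length, also occur in transcripts of other genes, and 26.7% of its exon length overlaps another gene, so its level is uncertain to that extent.

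Hmgcs1, which condenses acetoacetyl-CoA with acetyl-CoA, averaged 190 ± 18.5 CPM in pDC_TG (n = 4), 105 ± 25.0 CPM in cDC1_WT, 73.1 ± 16.3 CPM in cDC2_WT and 244 ± 39.5 CPM in pDC_WT (SD, n = 8 each). The pDC_TG value did not pass the test (log2 fold change -0.36, edgeR adjusted p = 0.171), while both conventional types lay entirely below pDC_WT (-1.22 and -1.74). Idi1, the isomerase that makes dimethylallyl diphosphate, ran from 229 to 338 CPM in pDC_TG, 92.3 to 190 CPM in cDC1_WT, 61.7 to 118 CPM in cDC2_WT and 249 to 373 CPM in pDC_WT. It was called in the comparisons of cDC1_WT (-1.09) and cDC2_WT (-1.81) with pDC_WT and not in pDC_TG. Mvk, mevalonate kinase, followed the same order, at 17.6 ± 2.16, 10.8 ± 1.76, 8.19 ± 1.74 and 23.3 ± 4.29 CPM in pDC_TG, cDC1_WT, cDC2_WT and pDC_WT.

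Pmvk and Acat2 were called in fewer or other comparisons. Pmvk, phosphomevalonate kinase, had means of 40.8 ± 7.65 CPM in pDC_TG, 34.1 ± 4.97 CPM in cDC1_WT, 13.8 ± 3.87 CPM in cDC2_WT and 41.3 ± 4.20 CPM in pDC_WT. Only in cDC2_WT was it called against pDC_WT (log2 fold change -1.58); cDC1_WT was 1.30 higher than cDC2_WT without overlap, and cDC1_WT against pDC_WT gave -0.27 (edgeR adjusted p = 0.093). Acat2, the cytosolic thiolase of the first step, had a mean of 33.7 ± 6.91 CPM in pDC_TG and 28.7 ± 8.49 CPM in pDC_WT, 1 of the 2 sterol steps with their highest mean in pDC_TG. Its cDC1_WT and cDC2_WT means were 11.7 ± 3.62 and 11.2 ± 1.96 CPM, and these did not pass the test against each other (0.05, edgeR adjusted p = 0.861). Shared sequence limits Acat2, since 33.9% of its 75-base words occur in other genes' transcripts, and likewise Idi1 (23.6%).

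**Figure D2:**
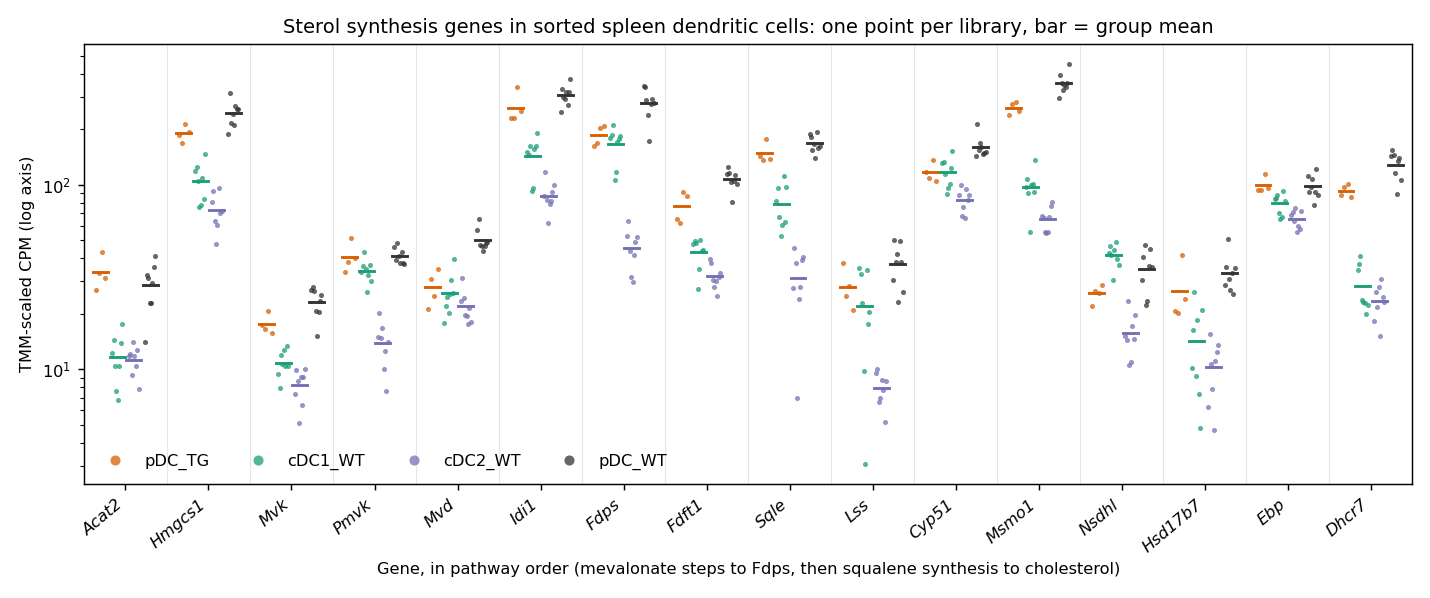
TMM-scaled CPM (vertical axis, log scale) of the 16 sterol synthesis genes, in pathway order, in each library of pDC_TG, cDC1_WT, cDC2_WT and pDC_WT, 1 point per library with the group mean as a bar. The pDC_TG libraries of Mvd, at 21.1 to 34.8 CPM, sit below all pDC_WT libraries, and cDC2_WT is the lowest group by mean for each sterol step.

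From squalene synthesis onward, 3 of 9 genes were called lower in pDC_TG, 8 of 9 in cDC1_WT and 9 of 9 in cDC2_WT, each against pDC_WT, where 7.04%, 30.3% and 28.3% of all genes were lower. Fdft1, squalene synthase, is the first enzyme committed to sterols. It stood at 65.3, 62.0, 91.6 and 86.9 CPM in pDC_TG, against 80.7, 109 and 124 CPM in pDC_WT, with overlap at the low end of pDC_WT. The change was -0.49 (SE 0.15, edgeR adjusted p = 0.025), and it was not called without pDC_TG replicate 1 or 2. Part of this gene's count is uncertain, since 18.3% of its exon length overlaps another gene and 21.8% of its 75-base words occur in other transcripts. Cyp51, lanosterol 14-alpha-demethylase, had 118, 109, 136 and 105 CPM in pDC_TG, all below the lowest pDC_WT library (143, median 153, highest 213 CPM). Its log2 fold change of -0.46 (SE 0.13, edgeR adjusted p = 0.017) was not called without pDC_TG replicate 2 or 4. Msmo1, the methyl sterol oxidase of the next steps, had 237, 273, 281 and 251 CPM in pDC_TG, against 295, 350 and 452 CPM in pDC_WT. The groups did not overlap (-0.46, SE 0.15, edgeR adjusted p = 0.031), yet its call was lost under 7 of the 20 other settings, including the loss of any single pDC_TG library or of pDC_WT replicate 2 or 8.

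Sqle, squalene epoxidase and a rate-limiting enzyme of the pathway, had 144, 136, 178 and 138 CPM in pDC_TG and 140, 165 and 193 CPM in pDC_WT, overlapping and not called (-0.18, edgeR adjusted p = 0.772). It was at 52.7, 74.2 and 111 CPM in cDC1_WT and 7.00, 32.6 and 45.3 CPM in cDC2_WT, so that the 3 WT cell types did not overlap. The log2 fold changes against pDC_WT were -1.10 (SE 0.22) in cDC1_WT and -2.43 (SE 0.22) in cDC2_WT, and cDC1_WT exceeded cDC2_WT by 1.33 (SE 0.22). Among the sterol steps, Dhcr7 and Msmo1 had the lowest fold changes in cDC1_WT. Dhcr7, which catalyses the last step to cholesterol in one branch, had 19.9, 23.4 and 41.1 CPM in cDC1_WT, 15.2, 24.0 and 30.9 CPM in cDC2_WT and 89.2, 137 and 154 CPM in pDC_WT. Its log2 fold changes were -2.19 and -2.45, and the difference between the conventional types did not pass the test (0.26, edgeR adjusted p = 0.174). Msmo1 gave -1.88 in cDC1_WT and -2.45 in cDC2_WT, with 97.1 ± 22.5 and 65.6 ± 9.86 CPM against 358 ± 47.3 CPM in pDC_WT.

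Nsdhl was the exception among the sterol steps in cDC1_WT. This sterol dehydrogenase of C4 demethylation averaged 41.4 ± 5.82 CPM in cDC1_WT and 35.1 ± 9.14 CPM in pDC_WT, ranges that overlapped (0.24, edgeR adjusted p = 0.204), and it was the sterol step with its highest mean in cDC1_WT. It was lower in cDC2_WT at 15.7 ± 4.30 CPM (-1.16), below every cDC1_WT library. Lss, lanosterol synthase, varied widely among the cDC1_WT libraries, from 3.06 to 35.5 CPM with a median of 21.7 CPM, against 23.0 to 50.5 CPM in pDC_WT. Its call there (-0.76, SE 0.29, edgeR adjusted p = 0.026) was lost under 6 of the 24 other settings, including without cDC1_WT replicate 4 or pDC_WT replicate 2 or 6. In cDC2_WT, Lss was at 5.17 to 9.98 CPM, a change of -2.23 that was called under every setting tried. Hsd17b7 (-1.24 and -1.70) and Fdft1 (-1.31 and -1.75) were lower in both conventional types. Ebp, the sterol isomerase, moved least of the sterol steps called, by -0.31 and -0.59. Its cDC1_WT call was lost with WT replicates 5 to 8 alone.

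Summed over the 16 sterol steps, the level was 1503 to 1892 CPM in pDC_TG (mean 1633 ± 178, n = 4), 715 to 1231 CPM in cDC1_WT (1020 ± 173), 489 to 732 CPM in cDC2_WT (595 ± 81.2) and 1791 to 2435 CPM in pDC_WT (2099 ± 188, n = 8 each). One pDC_TG library reached into the range of pDC_WT, and the conventional types overlapped slightly. Of the 16 steps, 13 had their highest mean in pDC_WT, 2 in pDC_TG and 1 in cDC1_WT, and all 16 had their lowest mean in cDC2_WT. Within cDC1_WT, replicates 4 and 5 were the lowest for Hmgcs1 (75.8 and 77.6 CPM), Idi1 (92.3 and 96.4 CPM), Fdps (105 and 118 CPM) and Insig1 (45.6 and 52.6 CPM). Transcripts of dividing cells were lowest in pDC_WT: 17 cell cycle genes summed to 409 to 639 CPM in pDC_TG, 1396 to 1749 CPM in cDC1_WT, 1168 to 1565 CPM in cDC2_WT and 284 to 357 CPM in pDC_WT, none of them at 0 in a whole group. The part of dividing cells, or of the neutrophil transcripts in pDC_TG replicate 4, in these results was not tested; without that library Mvd, Fdps and Fdft1 were called lower. The cDC1_WT library with the most neutrophil transcripts, replicate 4, had the lowest sterol sum of its group (715 CPM) and the highest Abcg1 level. Replicate 5, with 0.362 CPM of neutrophil markers, had the next lowest sum (809 CPM). The sum of pDC_TG replicate 4 was 1610 CPM, within the range of its group. Without cDC1_WT replicate 4, 19 members were lower and 4 higher in cDC1_WT against pDC_WT. Over all fits with a single library left out, 19 to 20 were lower and 4 to 5 higher. A link between neutrophil transcripts and these levels was not tested.

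**Figure D3:**
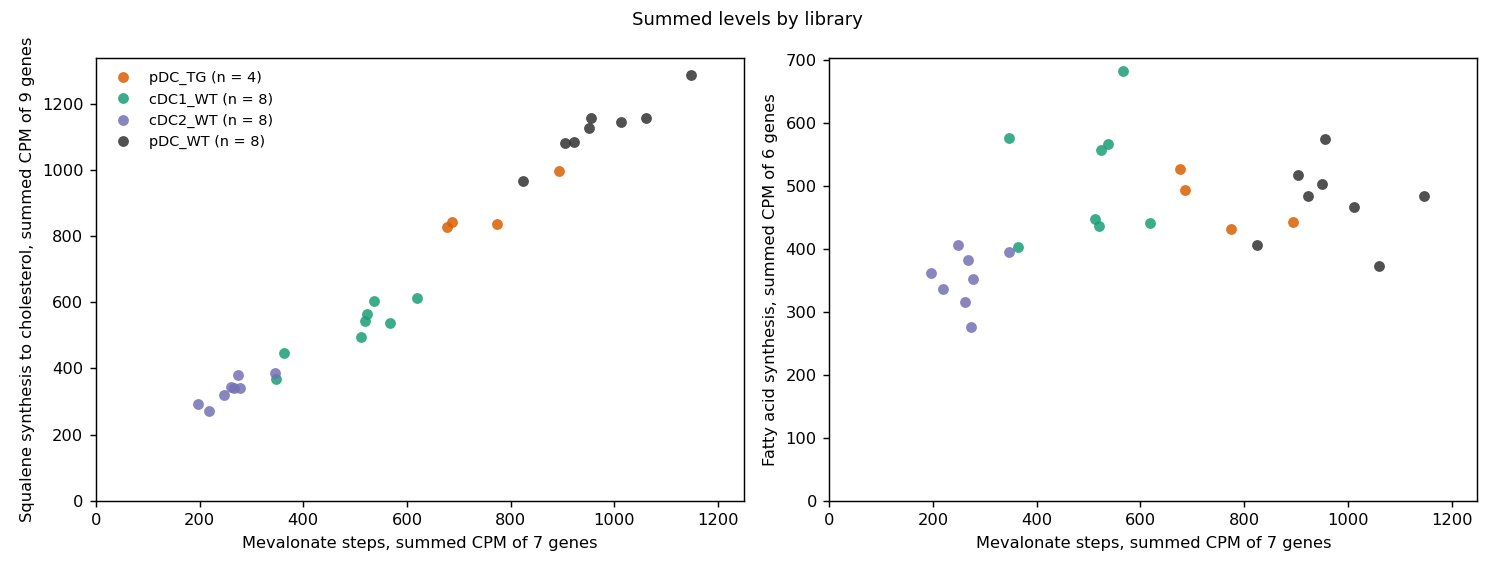
Each point is 1 library of pDC_TG, cDC1_WT, cDC2_WT or pDC_WT, placed by the summed TMM-scaled CPM of the 7 mevalonate genes (horizontal axes) and of the 9 squalene synthesis to cholesterol genes (left panel) or the 6 fatty acid synthesis genes (right panel, vertical axes). On the left cDC2_WT lies lowest and pDC_WT highest, while on the right cDC1_WT spans 402 to 682 CPM and pDC_WT 372 to 575 CPM.

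Of the genes that sense sterols, none was called in pDC_TG. Insig1, which retains SCAP in the endoplasmic reticulum and is itself an SREBP target, came nearest: 173, 205, 197 and 164 CPM in pDC_TG lay below the lowest of 219, 269 and 309 CPM in pDC_WT, but the test gave -0.49 (SE 0.17, edgeR adjusted p = 0.052). It was called under 7 of the 20 other settings, among them DESeq2 and the fits without pDC_WT replicate 1, 4 or 5. Srebf2, which encodes the SREBP that chiefly drives sterol genes, had 380, 403, 341 and 343 CPM in pDC_TG and 187, 322 and 424 CPM in pDC_WT, not called as reported (0.25, edgeR adjusted p = 0.346). Scap (270 ± 34.1 against 289 ± 53.8 CPM) and Srebf1 (106 ± 23.0 against 112 ± 24.8 CPM) were not called between pDC_TG and pDC_WT either.

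Across the WT cell types, Insig1 and Scap were lower in the conventional types and Srebf2 was not called. Insig1 had 45.6, 83.0 and 104 CPM in cDC1_WT and 35.5, 51.2 and 66.3 CPM in cDC2_WT, log2 fold changes of -1.73 and -2.32 against pDC_WT, without overlap. Scap, the escort of SREBP, fell to 113 ± 17.0 CPM in cDC1_WT and 108 ± 11.6 CPM in cDC2_WT, against 289 ± 53.8 CPM in pDC_WT (-1.35 and -1.42), again without overlap. Srebf2 averaged 290 ± 37.7, 302 ± 51.5 and 309 ± 77.4 CPM in cDC1_WT, cDC2_WT and pDC_WT, and gave -0.09 and -0.04 against pDC_WT (edgeR adjusted p = 0.55 and 0.836). A transcript level does not report cleavage of the SREBP protein. Srebf1 was lower in both (-0.70 in cDC1_WT and -0.68 in cDC2_WT). Its cDC2_WT call was lost with WT replicates 5 to 8 alone (edgeR adjusted p = 0.164).

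Of the 6 fatty acid synthesis genes, 3 were higher and 2 lower in cDC1_WT against pDC_WT, 0 were higher and 3 lower in cDC2_WT, and 0 were called in pDC_TG. That is 83.3% called in cDC1_WT (background 60.9%) and 50% in cDC2_WT (background 57.1%), the second of which is near the share of all genes. Fasn, fatty acid synthase, had 48.7, 40.4, 35.7 and 29.6 CPM in pDC_TG and 39.2, 60.2 and 83.8 CPM in pDC_WT, which overlapped (-0.60, SE 0.23, edgeR adjusted p = 0.081; called without pDC_WT replicate 2). In cDC1_WT its 124, 156 and 269 CPM lay above all libraries of cDC2_WT (34.9, 62.2 and 80.1 CPM) and of pDC_WT. The log2 fold changes were 1.53 (SE 0.19) against pDC_WT and 1.48 (SE 0.19) against cDC2_WT, whereas cDC2_WT against pDC_WT gave 0.05 (edgeR adjusted p = 0.843). Scd1, a stearoyl-CoA desaturase, was also higher in cDC1_WT, at 7.05, 11.3 and 18.5 CPM, against 0.0375, 1.66 and 3.87 CPM in cDC2_WT and 0, 1.24 and 3.30 CPM in pDC_WT. It rose by 2.98 (SE 0.74) against pDC_WT and by 2.75 (SE 0.74) against cDC2_WT, in both cases without overlap.

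Scd2, the paralogue of Scd1, was lower in both conventional types, though its cDC1_WT call was lost with WT replicates 1 to 4 alone. It averaged 171 ± 7.63 CPM in pDC_TG, 124 ± 37.0 CPM in cDC1_WT, 105 ± 24.4 CPM in cDC2_WT and 183 ± 31.7 CPM in pDC_WT, with changes of -0.57 and -0.81 in cDC1_WT and cDC2_WT; per kilobase of exon it stood at 22.6 CPM in cDC1_WT where Scd1 stood at 2.44 CPM, and at 33.5 against 0.308 CPM in pDC_WT. Elovl6, which elongates palmitate, was low throughout and lower in the conventional types: 4.66 ± 1.91 CPM in cDC1_WT (-1.14) and 2.00 ± 1.17 CPM in cDC2_WT (-2.36), against 10.3 ± 3.10 CPM in pDC_WT. The cDC1_WT call of Elovl6 was lost with WT replicates 5 to 8 alone. In pDC_TG, Elovl6 averaged 13.1 ± 3.63 CPM (0.35, edgeR adjusted p = 0.66). Acly, which supplies cytosolic acetyl-CoA from citrate, was called only in cDC2_WT against pDC_WT (-0.33, edgeR adjusted p = 0.007), and not with WT replicates 1 to 4 or 5 to 8 alone. Acaca, acetyl-CoA carboxylase, was called in cDC1_WT (19.2 ± 7.16 against 12.2 ± 4.01 CPM, 0.65, edgeR adjusted p = 0.046), a call lost under 15 of the 24 other settings, among them without cDC1_WT replicate 1, 2, 3 or 4 or pDC_WT replicate 1, 4, 6, 7 or 8, and 26.8% of its 75-base words occur in other genes' transcripts.

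**Figure D4:**
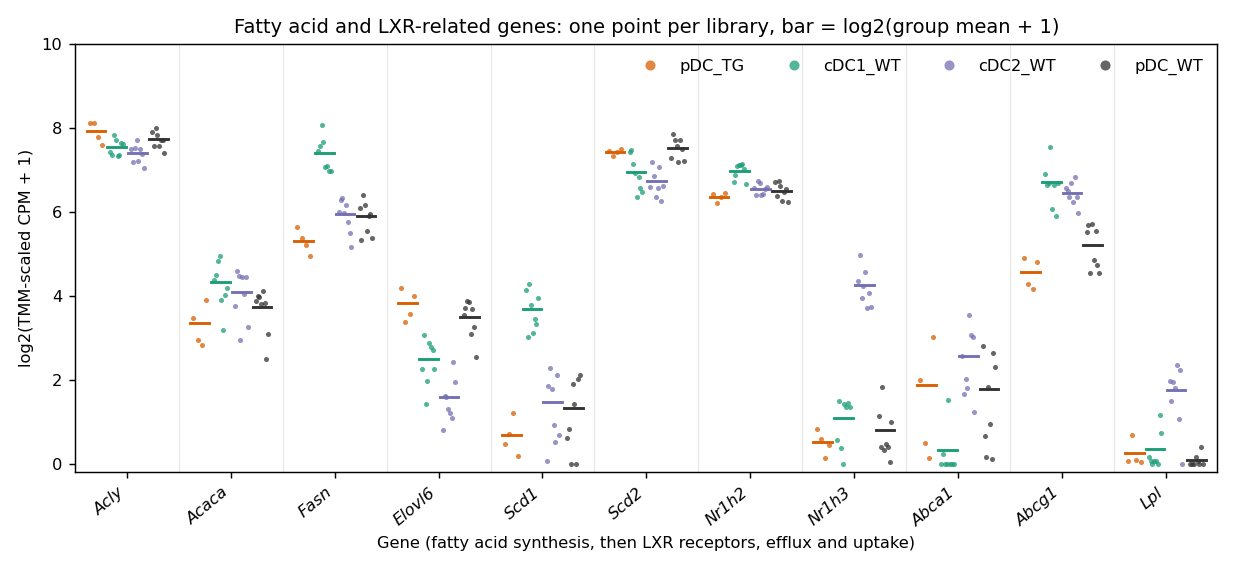
Level as log2(TMM-scaled CPM + 1) (vertical axis) of the fatty acid synthesis, LXR, efflux and uptake genes in each library of pDC_TG, cDC1_WT, cDC2_WT and pDC_WT, 1 point per library with a bar at the log2 of the group mean + 1. Fasn lies at 124 to 269 CPM in cDC1_WT, above all other libraries, and Nr1h3 at 12.0 to 30.3 CPM in cDC2_WT, against at most 2.55 CPM elsewhere.

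The 2 LXR genes differed in where they were found. Nr1h2, which encodes the broadly expressed LXR beta, was at 81.3 ± 6.14 CPM in pDC_TG, 125 ± 15.9 CPM in cDC1_WT, 92.6 ± 8.28 CPM in cDC2_WT and 89.6 ± 11.9 CPM in pDC_WT. It was called in cDC1_WT against pDC_WT (0.48) and against cDC2_WT (0.44). Nr1h3, which encodes LXR alpha and is known from macrophages, had 0, 1.55 and 1.83 CPM in cDC1_WT, 12.0, 16.8 and 30.3 CPM in cDC2_WT and 0.0308, 0.354 and 2.55 CPM in pDC_WT. No library outside cDC2_WT reached the cDC2_WT range. Its log2 fold change was 4.59 (SE 0.64, edgeR adjusted p = 3.56e-07) in cDC2_WT against pDC_WT and -3.98 (SE 0.62) in cDC1_WT against cDC2_WT. The pDC_TG libraries had 0.767, 0.492, 0.0998 and 0.351 CPM.

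None of the efflux and uptake genes was called in pDC_TG. Abcg1, an exporter of cholesterol to lipoprotein particles, had 59.1, 100 and 186 CPM in cDC1_WT, 61.7, 85.3 and 113 CPM in cDC2_WT and 22.3, 36.4 and 51.2 CPM in pDC_WT. Both conventional types lay above all pDC_WT libraries, with log2 fold changes of 1.52 (SE 0.21) and 1.26 (SE 0.21). In pDC_TG, Abcg1 had 28.8, 18.3, 16.9 and 26.9 CPM, and the difference did not pass the test (-0.67, SE 0.26, edgeR adjusted p = 0.089). Abca1, an exporter to lipid-poor apolipoprotein, was low and scattered: 2.96, 0.416, 0.0998 and 7.12 CPM in pDC_TG, 1.35, 3.97 and 10.7 CPM in cDC2_WT and 0.0782, 1.75 and 5.96 CPM in pDC_WT. In cDC1_WT it had a count in 2 of 8 libraries, 50 counts in all, and was lower than in pDC_WT (-3.22, SE 1.09) and cDC2_WT (-4.23, SE 1.13). Of these counts 46 came from replicate 5, and without it the values were -6.35 and -7.38. Neither call was made with WT replicates 5 to 8 alone. Lpl, lipoprotein lipase, was found in 7 of 8 cDC2_WT libraries (455 counts in all, median 2.68 and highest 4.09 CPM), against 3 of 8 pDC_WT libraries with 14 counts in all. It had 20 counts in pDC_TG and 48 in cDC1_WT (median 0.0433, highest 1.25 CPM). Lpl passed the filter through cDC2_WT alone, the group where it was highest. Its calls against that group, counted above, draw on the libraries that admitted it and are no support.

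Macrophage and monocyte transcripts stood beside these cDC2_WT values. The 11 markers of red pulp and other macrophages summed to 4.99 to 9.76 CPM in pDC_TG, 120 to 208 CPM in cDC1_WT, 465 to 571 CPM in cDC2_WT and 7.32 to 15.0 CPM in pDC_WT. In cDC2_WT, 7 of the 11 were present, namely Adgre1 at 370, C1qb at 34.1, Vcam1 at 32.5, C1qa at 25.4, C1qc at 21.2, Hmox1 at 16.1 and Spic at 15.6 CPM. The remaining 4 were below 1 CPM there, with Mertk at 0.677, Cd5l at 0.855, Marco at 0.0698 and Siglec1 at 0.619 CPM. In cDC1_WT, Vcam1 (87.7 CPM) and Hmox1 (46.7 CPM) were higher by mean than in cDC2_WT. Adgre1 (3.27 CPM), C1qb (1.17), C1qa (1.15), C1qc (0.820) and Spic (7.66) were lower in cDC1_WT. The 7 monocyte markers summed to 2847 to 3604 CPM in pDC_TG, 586 to 940 CPM in cDC1_WT, 1806 to 3399 CPM in cDC2_WT and 2354 to 3185 CPM in pDC_WT, but their makeup differed. Lyz2 averaged 1752 CPM in cDC2_WT and 2.81 CPM in pDC_WT, Csf1r 486 and 3.77 CPM, Ace 83.3 and 0.212 CPM, Treml4 76.6 and 0.260 CPM, and Fcgr1 4.00 and 0.264 CPM. The pDC_WT sum was mostly Ly6c2, at 1.17 CPM in cDC2_WT and 2373 CPM in pDC_WT, with Ccr2 at 136 CPM in cDC2_WT and 396 CPM in pDC_WT. The part of such transcripts in the levels of Nr1h3, Lpl and Abca1 was not tested.

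Per kilobase of exon, which allows genes to be set against each other, Idi1 had the highest level of the 31 genes in pDC_TG (74.7 CPM per kb), cDC1_WT (41.1) and pDC_WT (87.4). Insig1 came next in pDC_WT at 84.0 CPM per kb, followed by Fdps at 66.0, Msmo1 at 58.3 and Hmgcs1 at 53.2. In cDC2_WT the highest was Srebf2 at 42.0 CPM per kb, with Idi1 at 24.9. Srebf2 stood at 43.0 CPM per kb in pDC_WT. Exon length here joins all annotated exons of a gene, not the transcripts expressed, so the order is approximate. Idi1 and Fdps also share 23.6% and 23.5% of their 75-base words with other genes' transcripts.

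Other genes of these pathways, 60 in 4 lists with 53 tested, were read beside the members. In pDC_TG against pDC_WT, 7 were higher and 10 lower of the 53 (32.1% called; background 14.8%, with 7.72% higher and 7.04% lower). Of 14 tested genes of SREBP processing and sterol turnover, 1 was higher and 4 lower: Mylip, the ligase that degrades the LDL receptor, had 31.9 ± 7.48 CPM in pDC_TG and 12.3 ± 1.72 CPM in pDC_WT (1.37), while Soat1, which esterifies cholesterol, was among those lower (-0.71). Of 20 other fatty acid genes 3 were higher and 3 lower. The elongase Elovl5 stood at 269 ± 19.1 CPM in pDC_TG and 164 ± 11.4 CPM in pDC_WT (0.72, edgeR adjusted p = 3.15e-08), and the desaturase Fads1 at 117 ± 12.9 and 65.0 ± 13.6 CPM (0.85). Acsl3 was without a count in all 4 pDC_TG libraries, and in pDC_WT it had counts in 6 of 8 libraries, with a median of 0.132 and a highest of 3.83 CPM.

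Of 13 other LXR, efflux and uptake genes tested, 3 were higher and 2 lower in pDC_TG. Pltp, the phospholipid transfer protein, fell to 758 ± 88.9 CPM in pDC_TG, against 1530 ± 263 CPM in pDC_WT (-1.01, SE 0.24, edgeR adjusted p = 0.0031), with 19.3% of its exon length overlapping another gene. Scarb1, a lipoprotein receptor, was lower (-0.55), while Smpdl3a was higher (0.90). In cDC1_WT against pDC_WT, 22 of the 53 were higher and 18 lower (75.5% called; background 60.9%, with 30.6% higher and 30.3% lower), with 5 of 6 other sterol genes lower, among them Lbr, a lamin receptor with sterol reductase activity, (331 ± 29.1 against 663 ± 67.4 CPM) and Sc5d (-0.99). Pltp was nearly absent from cDC1_WT (0.175 against 1530 CPM), and the fatty acid translocase Cd36 was at 929 ± 70.6 CPM in cDC1_WT and 44.4 ± 37.2 CPM in pDC_WT (4.39). The lysosomal lipase Lipa (1.95), Soat1 (1.94) and Hacd2 (1.71) were also higher in cDC1_WT, and Acsl1 was lower (-1.86).

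In cDC2_WT against pDC_WT, 15 of the 53 were higher and 27 lower (79.2% called; background 57.1%, with 28.8% higher and 28.3% lower), and all 6 other sterol genes were lower, among them Sc5d (-1.90). Both desaturases were lower, Fads2 at 0.782 CPM in cDC2_WT against 106 CPM in pDC_WT (-7.01) and Fads1 at 15.1 against 65.0 CPM (-2.10). Soat1 (2.01), Lipa (1.51) and the fatty acid binding protein Fabp5 (4.47) were higher, and Pltp was lower (-3.78). Between the conventional types, 23 of the 53 were higher and 7 lower in cDC1_WT against cDC2_WT (56.6% called; background 46.2%, with 22.8% higher and 23.4% lower). Insig2 (1.20), Npc2 (1.27), Hacd2 (1.81), Fads1 (1.84) and Cd36 (6.86) were higher in cDC1_WT, and Lbr (-0.77) and Pltp (-9.21) lower.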

How the data were processed

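Per the labels' protocols, the SMART-Seq v4 kit amplified 4 ng of RNA from each sample, and single reads of 75 bp were sequenced on 2 flow cells; the kit does not mark strand. Tools named in the submitters' processing notes are SAMtools 0.1.18, TopHat2 2.1.0, Trimmomatic 0.35 and FastQC 0.11.4, with mm10 as the mouse build. What counted the reads, and on which annotation, is not given in the sources used here. Each of the 28 deposited tables lists integer read counts for 24421 gene symbols as the authors made them, not normalized. Their 5 summary lines were left out: reads outside genes came to 8.23% to 18.7% and ambiguous reads to 1.04% to 1.57%.

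In R 4.3.3, edgeR 4.0.16 scaled the counts by TMM and kept genes by filterByExpr with the groups given (count of at least 10, total of at least 15). All 28 libraries entered 1 robust quasi-likelihood fit with two-sided tests, and p-values were adjusted over 13159 genes by Benjamini-Hochberg with a threshold of 0.05. The standard error (SE) of a log2 fold change is the unshrunken estimate divided by the square root of the test's F. Levels are TMM-scaled CPM, computed here from the deposited counts. The precision of a level is set by depth and by the spread between libraries; counting floors cover counting error only, as copies made by PCR cannot be told from molecules. The analysis steps were tested on simulated counts. Libraries within a group differed beyond sampling noise (lowest chi-square per degree of freedom 33.6).

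Exon lengths, overlaps and shared 75-base words came from GENCODE M21 on GRCm38, and promoters from RefSeq GRCm38.p6. Of the 31 genes, 5 shared 20% or more of their 75-base words with other genes' transcripts and the other 26 at most 9.79%. The members are all named; of the other pathway lists, up to 3 called genes with the smallest adjusted p per list are named for pDC_TG and up to 2 in each WT comparison, apart from some that are not reported here. The members, lists and tests were chosen with earlier results of these data known. Alternatives were other scaling, no filter, DESeq2 1.42.0, only the groups compared, the replicate number as a block, WT replicates 1 to 4 or 5 to 8 alone (the design text speaks of 4 replicates and the labels of 8), and each library left out. The labels do not tie libraries to flow cells.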

Additional observations from a re-analysis of the deposited data

Results flagged for a closer look

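Over the 31 genes and 4 groups, 124 sets of libraries were checked for a single library far from the rest of its group, and 8 were picked out; chance alone picks out about 1 set in 20. All 8 were the highest library of their group. Ebp was at 114 CPM in pDC_TG replicate 3, where pDC_TG replicates 1, 2 and 4 had 93.2 to 95.9 CPM. Lpl stood at 0.605 CPM in pDC_TG replicate 2 (16 counts), where the others had 0.0319 to 0.0666 CPM. In cDC1_WT, Abca1 was at 1.85 CPM in replicate 5 and at 0 to 0.174 CPM in the rest, and Abcg1 at 186 CPM in replicate 4 and 59.1 to 118 CPM in the rest. Among the pDC_WT libraries, Cyp51 reached 213 CPM in replicate 2, against 143 to 167 CPM, and Hsd17b7 50.9 CPM in replicate 3, against 25.7 to 35.9 CPM. Nr1h3 was at 2.55 CPM in pDC_WT replicate 3 (68 counts), with 0.0308 to 1.18 CPM in the others, and Lpl at 0.308 CPM in pDC_WT replicate 7 (10 counts), with at most 0.11 CPM in the others.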

How the results depend on the processing

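No called log2 fold change of the 31 genes changed its sign under any of the 20 alternatives of pDC_TG against pDC_WT or the 24 of each WT comparison. In the comparison of pDC_TG with pDC_WT 1 of 5 calls, Mvd, held under all of them, and 19 of 25, 23 of 25 and 14 of 20 held in cDC1_WT against pDC_WT, cDC2_WT against pDC_WT and cDC1_WT against cDC2_WT. With libraries left out singly, the members lower in pDC_TG numbered 1 to 6, and all genes lower 708 to 936. With WT replicates 5 to 8 alone, 2 members were lower and 1 higher in pDC_TG (Srebf2, 0.53, edgeR adjusted p = 0.045), and 1 was lower in cDC1_WT against cDC2_WT, where Abca1 and Lpl were no longer called. With WT replicates 1 to 4 alone, 1872 genes were higher and 2049 lower in cDC1_WT against cDC2_WT, against 3003 and 3082 with all replicates; fewer libraries were tested in these fits. The cause of the other changes was not tested. Between the conventional types, the higher Mvk was called under 14 of 24 alternatives, and not without cDC1_WT replicate 3, 5 or 7 or cDC2_WT replicate 1, 4 or 6.

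With the replicate number as a block, 9 members were lower in pDC_TG. Over the alternatives other than leaving out single libraries, that count ran from 2 to 9. Of all genes, 729 to 1108 were lower over the same alternatives, against 927 as reported. Same-numbered libraries of WT groups correlated in their deviations from the group means at 0.0492 to 0.22, not all over 0.1. Those of pDC_TG and pDC_WT correlated at -0.0404 to 0.0406. Each cDC1_WT library correlated best with its own number in cDC2_WT (8 of 8), and 7 of 8 did in pDC_WT. Every cDC2_WT library did so in pDC_WT (8 of 8), and no pDC_TG library did (0 of 4). WT libraries of 1 number may thus share a source, which the labels do not state. The main fit did not pair them, so its WT p-values leave that out. Of the members, only Acaca changed its call with the block in a WT comparison, cDC1_WT against pDC_WT.

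Depth limits the genes near 0: Lpl, Abca1, Scd1 and Nr1h3 rest on few counts in the groups where they are low, and their fold changes there carry standard errors of 0.59 to 1.34.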
